A study of Mus musculus with 6 samples.

Results

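The Dlx homeobox genes of the mouse were followed in bulk RNA sequencing of the proximal end of the incisor. The family was defined by name as Dlx1, Dlx2, Dlx3, Dlx4, Dlx5 and Dlx6, and all 6 genes were found among the 19060 genes of the count table and passed the filter on low counts. Their antisense transcripts Dlx1as, Dlx4os, Dlx6os1 and Dlx6os2, 4 in all, were followed beside them. The 3 control samples were from Fgfr1fl/fl mice, which carry loxP sites in both copies of the FGF receptor gene Fgfr1. The 3 mutant samples were from Gli1CreER;Fgfr1fl/fl mice, in which Cre becomes active after tamoxifen in cells that express Gli1, a marker of the mesenchymal stem cells at the proximal end of the incisor. GEO's labels give the genotypes as wild type and Gli1-Cre;Fgfr1fl/fl, while the protocol in them names the controls Fgfr1fl/fl. They give an age of 1 month for every sample, and date the collection to 1 week after tamoxifen. By the protocol both groups share the floxed alleles and the collection after tamoxifen, while the Cre driver is present only in the mutants. An effect of the driver and of the Fgfr1 deletion therefore cannot be told apart. Whole tissue was sequenced, which also holds cells that never express Gli1.

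Dlx genes encode homeodomain transcription factors and lie as pairs of neighbouring genes that are transcribed toward each other. In the embryo their nested expression in the pharyngeal arches patterns the jaws, and Dlx1 and Dlx2 are required for upper molars. In mineralized tissue Dlx3, Dlx5 and Dlx6 act in bone, dentin and enamel formation, and mutations of human DLX3 cause tricho-dento-osseous syndrome, a disorder of hair, teeth and bone.

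In GRCm38, the same assembly as the build mm10 on which the reads were aligned, Dlx1 (chr2:71528113-71533981, plus strand) and Dlx2 (chr2:71543408-71546754, minus strand) are 9426 bases apart. Dlx6 (chr6:6863334-6868568, plus strand) and Dlx5 (chr6:6877805-6882085, minus strand) are 9236 bases apart. Dlx3 (chr11:95120119-95125296, plus strand) and Dlx4 (chr11:95140447-95146263, minus strand) are 15150 bases apart. The longest coding transcript of each of the 6 genes has 3 exons. The homeobox, the 180 coding bases of the DNA-binding domain, is shared by all members, with identities between pairs of genes from 66.1% for Dlx3 and Dlx6 to 81.7% for Dlx2 and Dlx3. Codons 46 to 58 of the homeobox encode part of the helix that contacts the major groove of DNA, and are shown for Dlx1, Dlx4, Dlx5 and Dlx6 so that the bases by which members can be told apart are seen. The sequences are from the reference genome, in exon 3 of each gene and in the direction of transcription, and capitals mark the 16 of 39 positions at which the 6 genes are not all alike.
Dlx1, chr2:71532267-71532305, plus strand: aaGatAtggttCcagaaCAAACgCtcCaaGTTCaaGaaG
Dlx4, chr11:95141428-95141466, minus strand: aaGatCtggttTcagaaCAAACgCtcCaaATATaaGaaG
Dlx5, chr6:6878447-6878485, minus strand: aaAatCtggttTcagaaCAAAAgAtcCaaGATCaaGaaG
Dlx6, chr6:6867044-6867082, plus strand: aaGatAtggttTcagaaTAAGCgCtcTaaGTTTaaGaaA
Despite this likeness, 0 of the windows of 75 bases in the exons of any Dlx gene occurred in another Dlx gene, so an exact read of that length can be assigned to 1 member. Windows shared with other genes were 264 of 5641 in Dlx1, all in common with Dlx1as, 6 of 3195 in Dlx4, all in common with Dlx4os, and 47 of 2371 in Dlx6, in common with Dlx6os2 and 7 genes elsewhere in the genome. No such window was found in Dlx2, Dlx3 or Dlx5. The strand setting of the counting is not given in the sources used here, so reads from exon bases that lie opposite each other, 335 between Dlx1 and Dlx1as, 79 between Dlx4 and Dlx4os and 104 between Dlx6 and Dlx6os2, may be assigned to either gene. Dlx6os1 (chr6:6820189-6871592, minus strand) spans Dlx6 without overlapping its exons.

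**Figure D1:**
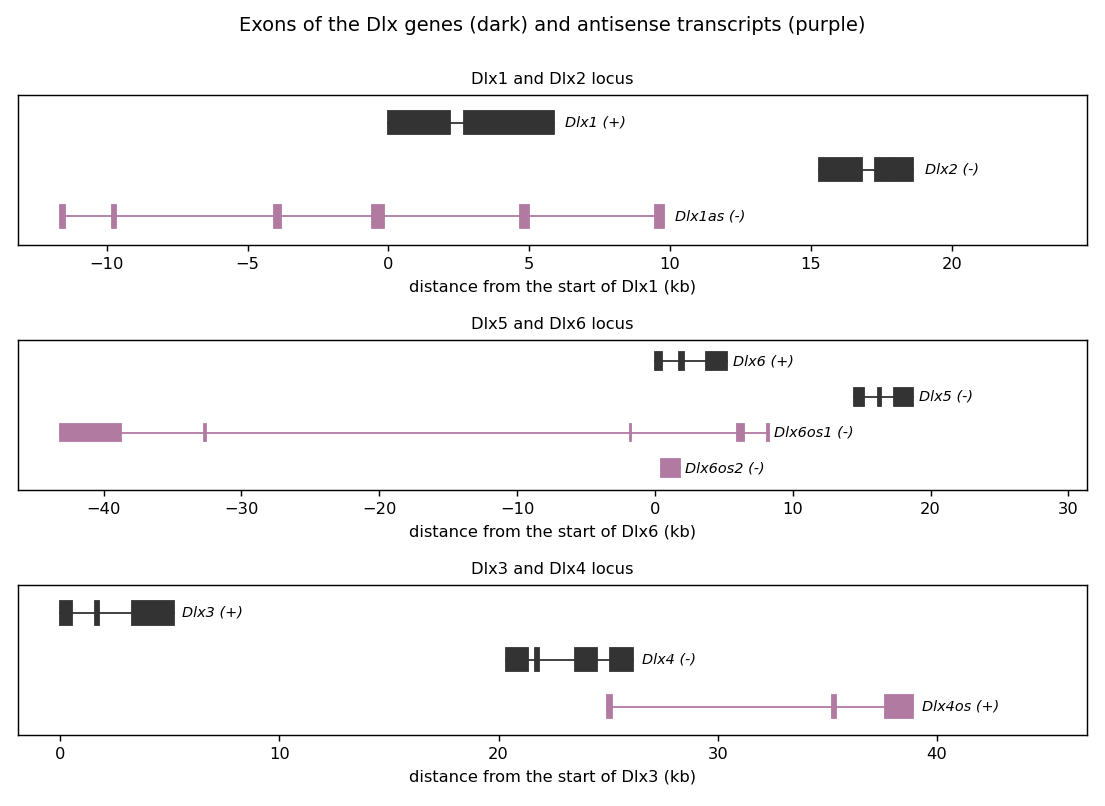
Exons of all annotated transcripts of the Dlx genes (dark blocks) and of their antisense transcripts (purple blocks), with the strand in parentheses, against the distance in kb from the start of the first gene of each locus. The 2 genes of each pair point toward each other, and Dlx6os1 runs across the whole of Dlx6.

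Values are given as CPM, counts scaled to a common library size by the upper quartile. Unless another test is named, adjusted p-values are from edgeR's quasi-likelihood test, two-sided and with the Benjamini-Hochberg method over 15826 genes. The control samples held 31060222 to 32712448 counts and the mutant samples 5276557, 11819576 and 11358282, so that a gene at 0 may hide up to 3 counts, or 0.0825 to 0.0874 CPM in the controls and 0.655, 0.256 and 0.302 CPM in mutants 1, 2 and 3. These limits and all intervals of single values cover counting error only. Every mutant held fewer counts than every control, so any difference in library preparation or sequencing that goes with depth cannot be told apart from genotype. Of all genes in the count table, 30.3, 17.1 and 19.7% were at 0 in mutants 1, 2 and 3, and 3.83 to 3.96% in the controls. The targeted gene Fgfr1 had 529, 924 and 434 CPM in the controls and 148, 318 and 262 CPM in the mutants, with a log2 fold change of -1.37 (SE 0.40, adjusted p = 0.0881). The labelled tissue was checked against its markers: dental epithelium and ameloblast markers were all detected in every sample, and those of dental mesenchyme and odontoblasts were too, except Barx1, listed at 0 in mutants 1 and 2, and Gsc, at 0 in mutant 2. The 6 skeletal muscle markers summed to 8.04, 2491 and 25.7 CPM in the controls and 5373, 126 and 884 CPM in the mutants. The 7 ameloblast markers summed to 85937 to 120405 CPM in the controls and 34717 to 74834 CPM in the mutants. Amelx and Ambn carry this sum and were lower in every mutant, at 50951 to 66940 against 15184 to 42259 CPM for Amelx, while Odam and Amtn, the 2 markers of the list past the study's threshold, were higher in every mutant. Endothelial markers summed to 132 to 221 CPM in controls and 111 to 115 CPM in mutants. The 3 erythroid markers that were tested summed to 180 to 447 CPM in controls and 610 to 1759 CPM in mutants.

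Dlx3 was the leading member of the family and Dlx6 the lowest in control incisors. Per kb of the longest coding transcript, control levels were 138 ± 14.7 CPM for Dlx3 (SD, n = 3), 38.5 ± 4.16 for Dlx5, 38.1 ± 7.02 for Dlx4, 37.2 ± 8.20 for Dlx2, 12.9 ± 1.23 for Dlx1 and 7.80 ± 1.24 for Dlx6. The levels of Dlx5, Dlx4 and Dlx2 lay within each other's spread, whereas those of Dlx3, of this middle group, of Dlx1 and of Dlx6 did not overlap in any control sample. In mutants the order by mean was Dlx3 at 99.1 ± 25.2 CPM per kb, Dlx5 at 38.7 ± 15.3, Dlx2 at 25.5 ± 6.53, Dlx4 at 21.7 ± 2.71, Dlx6 at 19.0 ± 8.24 and Dlx1 at 10.7 ± 6.84, and below Dlx3 the neighbours in this order overlapped. Dlx3 made up 48.1 to 53.1% of the family's summed level per kb in controls and 43.7 to 47.4% in mutants. Dlx6 made up 2.38 to 3.24% in controls and 17.6, 5.89 and 5.91% in mutants 1, 2 and 3. With the union of all exons as the length, Dlx3 held 55.7 to 60.3% in controls and 49.5 to 54.8% in mutants. The summed CPM of the 6 genes was 619, 718 and 656 in controls and 381, 611 and 544 in mutants. The groups did not overlap, but only by a narrow gap between control 1 and mutant 2. Per kb, the sum was 253.25 CPM in control 1 and 253.21 CPM in mutant 2, so that hardly any gap was left. In bulk tissue, fewer cells that express a gene and less RNA of that gene per cell cannot be told apart.

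At an adjusted p under 0.05, 0 of the 6 Dlx genes differed between the genotypes, beside 6.79% of all genes tested (3.72% higher and 3.06% lower in mutants). At an unadjusted p under 0.05 there were 2, Dlx4 and Dlx6, beside 20.1% of all genes, and DESeq2 called the same 2 genes at an adjusted p under 0.05, beside 10.2% of all genes with an adjusted p. The study's own threshold asks for p under 0.05, not adjusted, together with more than 1.5-fold, and by it Dlx4 was lower and Dlx6 was higher in mutants. These are 2 of 6 genes, where 19.8% of all genes pass, 10.9% in the higher and 8.92% in the lower direction. The values of Dlx3, Dlx4 and Dlx6 did not overlap between the groups, 3 of 6 genes, which is the case for 30.4% of all genes tested (14.1% higher and 16.3% lower). The median log2 fold change of the 6 genes was -0.37, beside -0.040 over all genes.

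**Figure D2:**
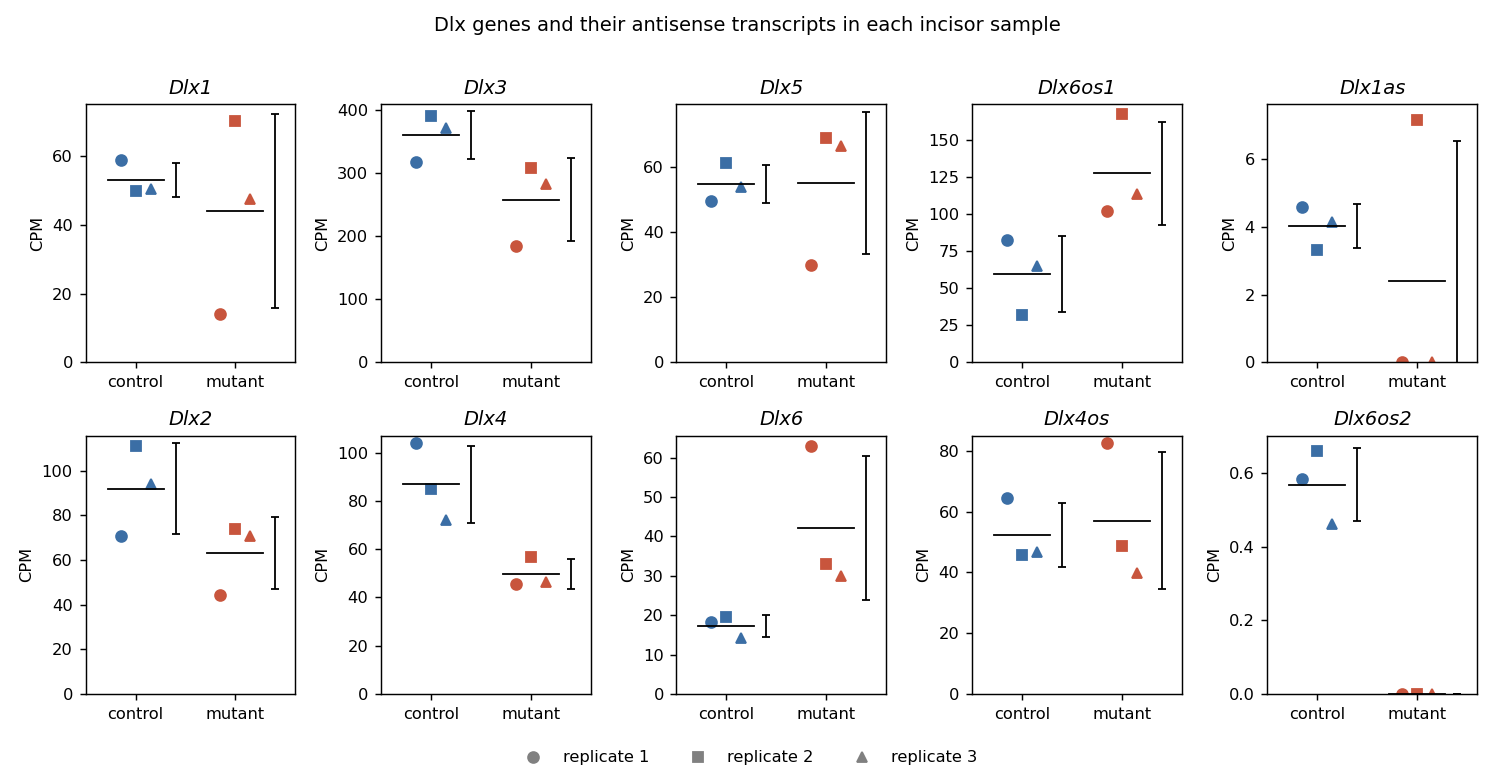
Level in CPM, on linear axes that start at 0, of the 6 Dlx genes and 4 antisense transcripts in the 3 control (blue) and 3 mutant (red) samples. Symbols mark replicates, horizontal lines the means and bars the SD. Dlx3 (by a narrow gap), Dlx4 and Dlx6os2 lie lower and Dlx6 and Dlx6os1 lie higher in all mutants than in all controls. Dlx6os2 is at 0 in every mutant. Among the Dlx genes, mutant 1 stands apart from the other mutants for Dlx1, Dlx2, Dlx3, Dlx5 and Dlx6.

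The Dlx1 and Dlx2 pair, which acts in the upper jaw and in forebrain interneurons, did not pass either threshold. Dlx1 had 58.8, 49.8 and 50.4 CPM in controls and 14.2, 70.1 and 47.5 CPM in mutants. The mutants thus ran from well below to above the controls, and the low value of mutant 1 rests on 65 counts (95% exact Poisson interval 10.9 to 18.1 CPM). The log2 fold change of Dlx1 was -0.26 (SE 0.49, adjusted p = 0.839) and became 0.13 without mutant 1. Dlx2 had 70.8, 111 and 94.1 CPM in controls and 44.5, 74.0 and 70.6 CPM in mutants. All 3 mutants were below the control mean, but mutant 2 lay above control 1. The log2 fold change of Dlx2 was -0.54 (SE 0.28, adjusted p = 0.343), with an approximate 95% interval of -1.10 to 0.013. Corrected for the length and GC content of transcripts, the values were 0.31 for Dlx1 and 0.0031 for Dlx2. Dlx1as, a noncoding transcript of the locus, had 4.60, 3.33 and 4.13 CPM in controls, 7.17 CPM in mutant 2 and 0 counts in mutants 1 and 3 (adjusted p = 0.879). In mutants 1 and 3 this allows up to 0.655 and 0.302 CPM, so both lay below all controls while mutant 2 lay above them.

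Of the Dlx3 and Dlx4 pair, Dlx4 was lower in all mutants at the study's threshold. Dlx3, a regulator of enamel, dentin and hair genes, had 318, 392 and 372 CPM in controls and 184, 308 and 283 CPM in mutants. The groups were separated, by a narrow gap between mutant 2 and control 1. The log2 fold change of Dlx3 was -0.48 (SE 0.27, adjusted p = 0.388), and it passed no threshold. Dlx4, the least studied member, had 104, 84.8 and 72.1 CPM in controls and 45.6, 56.7 and 46.4 CPM in mutants. Every mutant lay below the lowest control. The log2 fold change of Dlx4 was -0.81, or 1.75-fold lower (SE 0.24, adjusted p = 0.0902), and DESeq2 gave an adjusted p of 0.0310. Dlx4os lies on the opposite strand, and its first exon shares 79 bases with the first exon of Dlx4. Dlx4os had 64.5, 45.9 and 46.8 CPM in controls and 82.5, 48.8 and 39.9 CPM in mutants, which overlap (log2 fold change 0.12, SE 0.32, adjusted p = 0.897). The ratio of Dlx4os to Dlx4 counts was 0.621, 0.541 and 0.650 in controls and 1.81, 0.860 and 0.861 in mutants. The ratio was higher in every mutant than in every control, but was not corrected for length or GC content. The summed level of ameloblast markers was also lower in every mutant, though not that of each marker (above), and their part in the values of Dlx3 and Dlx4 was not tested. With the correction for length and GC content, the log2 fold changes became -0.35 for Dlx4 (adjusted p = 0.504) and 0.010 for Dlx3, so that Dlx4 no longer passed the study's threshold.

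Of the Dlx5 and Dlx6 pair, which directs lower jaw identity and acts in bone formation, Dlx6 alone passed the study's threshold, in the higher direction. Dlx5 had 49.4, 61.1 and 53.8 CPM in controls and 29.9, 68.8 and 66.4 CPM in mutants. Mutant 1 was below all controls and the other two were above them. The log2 fold change of Dlx5 was 0.011 (SE 0.34, adjusted p = 0.990), with an approximate 95% interval of -0.65 to 0.67, so that a change of up to 1.5-fold in either direction lies inside it. Dlx6 had 18.2, 19.5 and 14.2 CPM in controls and 63.1, 33.0 and 30.0 CPM in mutants. All mutants exceeded all controls, and the highest, mutant 1, rests on 289 counts (95% exact Poisson interval 56.0 to 70.8 CPM). The log2 fold change of Dlx6 was 1.28, or 2.43-fold higher (SE 0.38, adjusted p = 0.0917), and DESeq2 gave an adjusted p of 0.0385. Without mutant 1 it was 0.85. The same correction gave 1.28 with the longest Dlx6 transcript and 0.75 (adjusted p = 0.376) with a shorter annotated one, a choice made after seeing the data, under which Dlx6 no longer passed the study's threshold.

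Dlx6os1 was also higher at the study's threshold. Dlx6os1, known as Evf2, is a noncoding RNA that is transcribed across Dlx6 and acts on the enhancers of the pair in the forebrain. It had 82.7, 31.9 and 64.8 CPM in controls and 102, 167 and 114 CPM in mutants. All mutants lay above all controls, with a log2 fold change of 1.10 (SE 0.37, adjusted p = 0.140), and of 0.50 (adjusted p = 0.626) with the correction for length and GC content. Relative to Dlx5, Dlx6os1 counts were 1.67, 0.522 and 1.20 in controls and 3.41, 2.43 and 1.72 in mutants. The groups again did not overlap, but only by a narrow gap between control 1 and mutant 3. Relative to Dlx6, Dlx6os1 counts were 4.54, 1.64 and 4.57 in controls and 1.62, 5.06 and 3.80 in mutants, which overlap. Neither ratio was corrected for length or GC content. Dlx6os2, a single-exon model that overlaps Dlx6, had 20, 24 and 16 counts in controls and 0 in each mutant (adjusted p = 0.0464). Its control levels of 0.583, 0.660 and 0.462 CPM lie around the limit of 0.655 CPM in mutant 1 and above those of the other two mutants, so that no fold is given. The adjusted p was under 0.05 in 3 of the 11 other fits that could test it, and 0.465 with DESeq2.

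Ratios of neighbouring genes within a sample do not depend on the scaling between samples. The ratio of Dlx6 to Dlx5 counts was 0.369, 0.318 and 0.264 in controls and 2.11, 0.480 and 0.453 in mutants. It was higher in all mutants, and mutant 1 was the only sample with more Dlx6 than Dlx5 counts. The mean log2 ratio differed by 1.30, or 2.45-fold (exact permutation test, two-sided, p = 0.1, the smallest that 3 samples against 3 allow, adjusted p = 0.3 over 3 pairs), and by 0.57 without mutant 1. For Dlx1 to Dlx2 the mean log2 ratio differed by 0.010 (exact permutation test, p = 1.0) with wide spreads of 0.46 in controls and 0.80 in mutants (SD). For Dlx4 to Dlx3 it differed by -0.29 (exact permutation test, p = 0.4, adjusted p = 0.6), and the groups overlapped, so that a lower Dlx4 relative to Dlx3 was not shown.

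**Figure D3:**
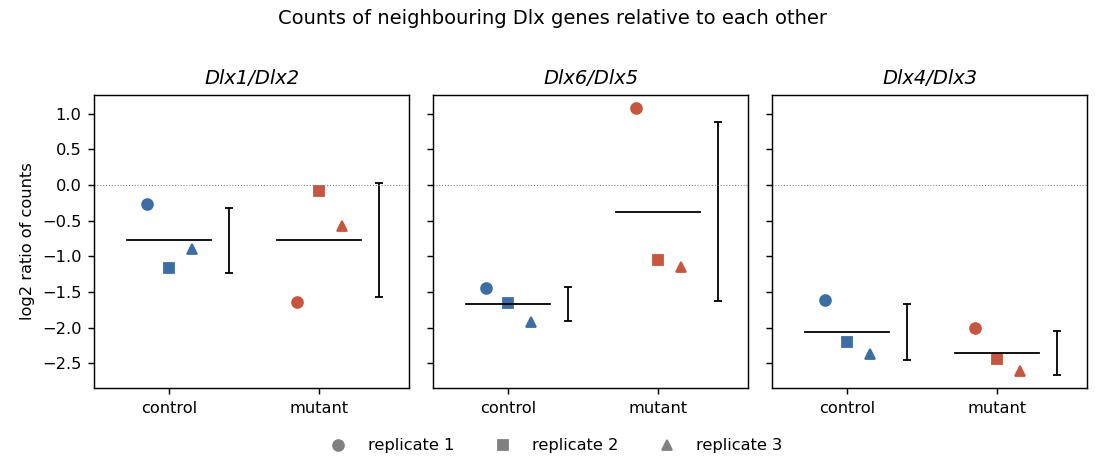
Log2 ratio of the counts of neighbouring Dlx genes in each control (blue) and mutant (red) sample, with means (lines) and SD (bars). The Dlx6 to Dlx5 ratio lies higher in all 3 mutants, most in mutant 1 with a count ratio of 2.11, while the other ratios overlap.

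Mutant 1, the sample with the fewest counts, had the lowest mutant level of Dlx1, Dlx2, Dlx3, Dlx4 and Dlx5 and the highest of Dlx6. The sum of its skeletal muscle markers was the highest of all samples (above), although Myh1 and Myh4 were higher in control 2, and their part in these values was not tested. The changes of each member under the other ways of processing are drawn together.

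**Figure D4:**
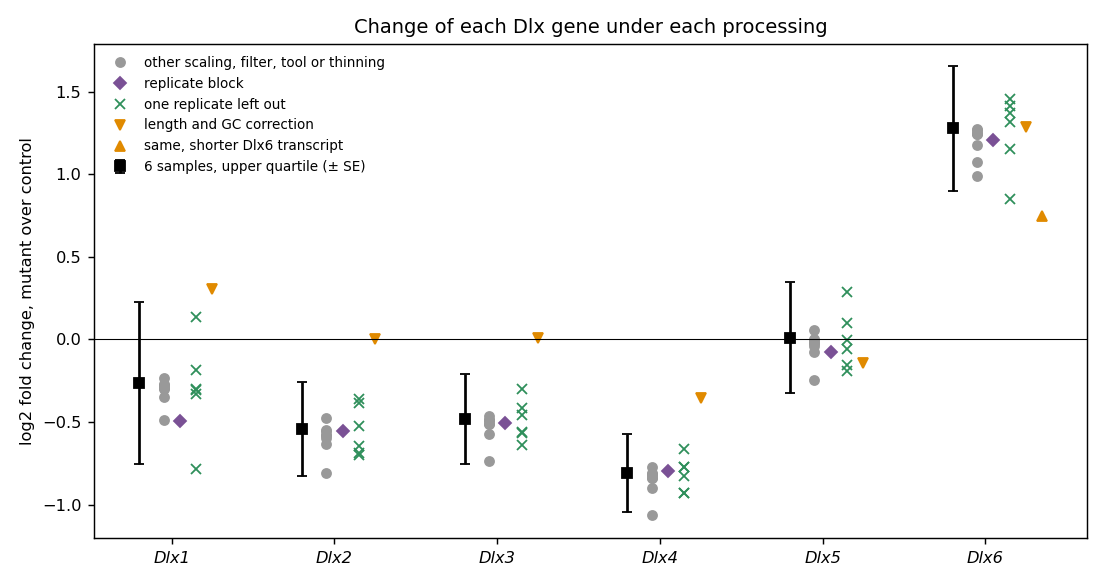
Log2 fold change of each Dlx gene, mutant over control, from the 6 samples with upper-quartile scaling (black squares, bars are SE) and under the other scalings, filters and tools, with the replicate number as a block, with each replicate left out and with the correction for length and GC. Dlx4 stays below 0 and Dlx6 above 0 in all of them, while the correction moves Dlx1, Dlx2 and Dlx3 above 0.

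Of 20 genes that act upstream of Dlx genes, among them BMP, FGF, endothelin and WNT ligands and their effectors, 19 were tested. Their median log2 fold change was -0.078, beside -0.040 over all genes. The study's threshold was passed by 2 of the 19, both lower, beside 19.8% of all genes tested (8.92% in the lower direction). Wnt10a, a ligand of tooth development, had a log2 fold change of -1.04 (SE 0.34, adjusted p = 0.126), and Bmp7, a BMP ligand, of -0.66 (SE 0.22, adjusted p = 0.131). None of the list passed the adjusted threshold. The values of 4 of the 19 genes did not overlap between groups, beside 30.4% of all genes tested. These were Wnt10a, Bmp7, Fgf9 and Edn1. Fgf9 and Edn1 passed no threshold (log2 fold changes 1.35, SE 0.77, and -3.00, SE 1.54, adjusted p = 0.390 and 0.333). Edn1 had 3.23, 2.39 and 2.63 CPM in controls and 0, 0.939 and 0 CPM in mutants.

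Of 11 partners and regulators of DLX proteins tested, 3 passed the study's threshold, all lower, beside 19.8% of all genes tested (8.92% in the lower direction). An adjusted p under 0.05 was reached by 2 of the 11, both among these 3, beside 6.79% of all genes (3.06% in the lower direction). Maged1, also called Dlxin-1, encodes a protein that binds DLX proteins. It had 678, 602 and 662 CPM in controls and 215, 265 and 279 CPM in mutants. All mutants were below all controls, and Maged1 fell by 1.36 on the log2 scale (SE 0.24, adjusted p = 0.0345). It kept an adjusted p under 0.05 in 10 of 16 other fits, and without control 3 the adjusted p was 0.189. With the correction for length and GC content the change of Maged1 was -0.94 (adjusted p = 0.0744). Camk2a, a subunit of the calcium and calmodulin-dependent kinase, had 1.98, 4.45 and 1.73 CPM in controls and 0 in every mutant (adjusted p = 0.0464, and 0.239 with the replicate block). Camk2a kept an adjusted p under 0.05 in only 5 of 15 other fits, and had 0.0744 with the correction for length and GC content. Genes at 0 were more common in every mutant than in every control (above). Pias1, a SUMO ligase, had a log2 fold change of -0.68 (SE 0.25, adjusted p = 0.177). The homeodomain partner Msx1 had 0.40 (SE 0.30, adjusted p = 0.545) and overlapped between groups. Across the list the median was -0.11, beside -0.040 over all genes.

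Among 22 known or presumed targets in tooth and bone, the median log2 fold change was -0.42, beside -0.040 over all genes. The study's threshold was passed by 3 of the 22, beside 19.8% of all genes tested. Odam, an enamel matrix protein of maturing ameloblasts, had 454, 776 and 607 CPM in controls and 1168, 2086 and 2958 CPM in mutants. It rose in all mutants, by 1.76 on the log2 scale (SE 0.42, adjusted p = 0.0466), and was the only gene of the list to pass the adjusted threshold. With the correction for length and GC content the change of Odam was 0.56 (adjusted p = 0.721). Odam kept an adjusted p under 0.05 in only 5 of 16 other fits. Col1a2, a collagen chain of bone and dentin, had -1.12 (SE 0.43, adjusted p = 0.190). Gsc, a homeobox gene, had -3.24 (SE 1.36, adjusted p = 0.231) at levels of 3.30 to 4.78 CPM in controls and 0 to 0.705 CPM in mutants. Spp1, Ibsp and Alpl, markers of bone formation, passed no threshold. Of 11 forebrain targets 5 were tested, none passed a threshold, and Sp9 had the smallest p, with 1.91 (SE 0.93, adjusted p = 0.304). Of 17 other homeobox and paired box genes of jaw and tooth, Shox2 and Gsc passed the study's threshold, both lower, beside 19.8% of all genes (8.92% in the lower direction). Shox2, at 3.70, 3.79 and 1.85 CPM in controls, had 0, 0 and 0.202 CPM in mutants (adjusted p = 0.0782). Over the union of these lists, 71 of 79 genes were tested, with a median log2 fold change of -0.12. At an adjusted p under 0.05, 1 was higher and 2 were lower, beside 3.72% and 3.06% of all genes tested. At the study's threshold 1 was higher and 8 were lower, beside 10.9% and 8.92% of all genes. With total counts alone 1 was higher and 17 were lower, and with the correction for length and GC content 7 were higher and 9 lower.

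Genes whose log2 CPM followed a Dlx gene most closely over the 6 samples were sought among 9707 genes with a mean of at least 10 CPM. The points share libraries and depth, 3 of them a genotype, and single samples carry much of the likeness, so Pearson's r is a description. Dlx1 was followed by Rab12 (r = 0.999), Mycn and Rnf25, and Dlx2 by Tnks (r = 0.995), Ago2 and Cachd1. Dlx3 was followed by Kremen1 (r = 0.996), Rxra and Lrrc47, and Dlx4 by Tspyl1 (r = 0.991), Isoc2a and Shf. Dlx5 was followed by Vash1 (r = 0.997), Nin and Rbm33, and Dlx6 by Osbpl8 (r = 0.998), 2610005L07Rik and Actb. Above r = 0.95 lay 336 genes for Dlx1, 247 for Dlx3, 130 for Dlx2, 125 for Dlx5 and 33 each for Dlx4 and Dlx6.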

How the data were processed

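Bulk RNA sequencing of 3 control and 3 mutant samples of the proximal end of the incisor was analysed. The authors deposited estimated counts per gene from Partek Flow, not normalized, on mm10; the submitters' processing notes name TopHat2 2.0.8. A second deposited table holds the authors' own comparison of the groups and was not used. Estimated counts were rounded, scaled by upper quartile, filtered by edgeR's filter (minimum count 10, total 15) and tested with edgeR 4.0.16 in R 4.3.3 on genotype alone, over all genes. SE is the log2 fold change divided by the square root of F, and approximate intervals rest on it. DESeq2 1.42.0 and limma 3.58.1 were alternatives. Scripts were tested on simulated data. Gene models came from GENCODE M21. The labels do not say that samples come from separate animals, so p-values measure only the spread between samples, which may be technical. The members, lists and tests were chosen with earlier results of these data known. Named genes are the Dlx genes and antisense transcripts, Fgfr1, up to 3 genes per list and direction with the smallest p, and the 3 genes most like each Dlx gene. Meis2, a listed partner, was not analysed here, and some sequences and markers are not reported here. The shorter Dlx6 transcript and exon-union lengths were added after seeing the data.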

Additional observations from a re-analysis of the deposited data

How the results depend on the processing

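Dlx4 stayed lower and Dlx6 higher under every scaling, filter and tool tried and without each replicate. With total counts alone, 1 Dlx gene passed the adjusted and 4 the study's threshold, and Dlx4 had a log2 fold change of -1.07, while the median of all genes moved to -0.30. DESeq2 called 2 Dlx genes at an adjusted p under 0.05, with -0.84 for Dlx4 and 1.24 for Dlx6. The length and GC correction left 1 Dlx gene, Dlx6, at the study's threshold, and 0 with the shorter Dlx6 transcript, and gave 0.31 for Dlx1, 0.0031 for Dlx2, 0.010 for Dlx3 and -0.14 for Dlx5. Without a replicate, 0 Dlx genes passed the adjusted and 2 the study's threshold each time. Adjusted p-values ran from 0.0310 to 0.504 for Dlx4 and from 0.0385 to 0.376 for Dlx6.

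Dlx5, near 0, changed sign with TMM (-0.078), median-of-ratios size factors (-0.022), total counts (-0.24), no filter (-0.0011), DESeq2 (-0.022), thinning of the controls to the mutant mean (-0.038) and the replicate block (-0.075), and ran from -0.19 to 0.29 without single replicates. Dlx1 ran from -0.78 to 0.13 without single replicates, and the difference in the Dlx1 to Dlx2 log2 ratio from -0.33 to 0.45. Samples of equal number had correlations of deviations of 0.0472, 0.00937 and 0.0548, and those of unequal number -0.0593 to 0.00808. All were small, although those of equal number were the higher ones. The replicate block changed no count of Dlx genes.

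Of the listed genes, 3 passed the adjusted threshold in the reported analysis, 1 without the filter, 1 where a mean of 50 counts was required, 1 with thinning, 8 with DESeq2, 5 with limma-voom, 0 with the length and GC correction and 0 to 1 without single replicates. At the study's threshold 9 passed, 18 with total counts, 15 with DESeq2, 16 with the correction and 6 to 12 without single replicates. The cause of these changes was not tested. The low depth of the mutants limits what can be said of Dlx6os2, and for Dlx1as the mutants lay on both sides of the controls.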
